A study of Homo sapiens with 8 samples.

Results

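The genes described here encode the sensors, chaperones and regulators with which a cell answers unfolded protein in the endoplasmic reticulum (ER) and shortage of amino acids. They were taken as a fixed list of 33 symbols, of which 32 were measured among 19775 genes. SYVN1, an ER ubiquitin ligase, was left out because its probe set carries more than 1 symbol in the annotation. The 33 comprise 4 sensors and their first transcription factors (ERN1, EIF2AK3, ATF6 and XBP1), 18 genes known as targets of ATF6 and XBP1, and 11 genes of the ATF4 branch. No filter on dim genes was applied, so all 32 measured genes entered the test. RNA was measured in HuCCT1, an established human cholangiocarcinoma (bile duct cancer) cell line, on 8 expression arrays.

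A scrambled control shRNA was expressed in 4 samples and the hairpin labelled YAP shRNA 1, directed against YAP1, in the other 4. Both groups were given doxycycline at 100 ng/ml for 3 days before seeding, in medium with tetracycline-free serum, so the inducer is shared by cases and controls. The knockdown group rests on 1 hairpin, and no sample without doxycycline or without an shRNA was analysed here. The labels do not say whether the replicates are separate cultures. If they are not, the p-values below reflect only technical spread among the 8 arrays. The title of the series speaks of overexpression, whereas the sample labels and the design text describe an shRNA.

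When unfolded proteins build up in the ER, the kinase and nuclease IRE1 (encoded by ERN1) splices XBP1 mRNA, ATF6 is cut to release a transcription factor, and the kinase PERK (EIF2AK3) phosphorylates the translation factor eIF2alpha. The first 2 branches raise transcription of chaperones, disulfide isomerases and degradation factors. PERK, like the amino acid sensor GCN2, slows general translation while favouring translation of ATF4, which then drives DDIT3 (CHOP), PPP1R15A (GADD34) and genes of amino acid synthesis and uptake. PPP1R15A protein directs a phosphatase to eIF2alpha and so restores translation. The arrays measured transcript level only, so XBP1 splicing, ATF6 cleavage and eIF2alpha phosphorylation were not measured. In bulk RNA, fewer cells expressing a gene and less RNA per cell cannot be told apart.

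Short elements known to be bound by these factors were searched in the promoters, and some of the matches are shown. Genes were placed in branches by the fixed list and not by these matches. The promoter table of RefSeq (GRCh38.p14) covers 250 bases before to 50 after each start and held 31 of the 33 genes. The ER stress response element (ERSE), which the factor NF-Y and ATF6 are known to bind, was searched as CCAAT, 9 bases of any kind and CCACG. Its variant ERSE-II was searched as ATTGG, 1 base and CCACG. The ATF4 element (CARE) was searched as TGATGNAA, and the XBP1 element (UPRE) by the core TGACGTGG, each on both strands. Sequences below are written 5′ to 3′ on the gene's own strand, and capitals mark the element with its spacer.
HSPA5 ERSE (chr9:125241379-125241421, minus strand): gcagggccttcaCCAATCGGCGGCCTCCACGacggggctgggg
XBP1 ERSE (chr22:28800591-28800633, minus strand): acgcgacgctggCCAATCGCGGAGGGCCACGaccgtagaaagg
HSP90B1 ERSE (chr12:103930204-103930246, plus strand): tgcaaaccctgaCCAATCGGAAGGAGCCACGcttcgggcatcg
PDIA6 ERSE (chr2:10812841-10812883, minus strand): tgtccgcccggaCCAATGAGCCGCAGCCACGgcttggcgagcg
CALR ERSE (chr19:12938372-12938414, plus strand, element read on the opposite strand): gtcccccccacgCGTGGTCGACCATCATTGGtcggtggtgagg
HERPUD1 ERSE-II (chr16:56932013-56932047, plus strand): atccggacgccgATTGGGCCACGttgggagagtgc
HYOU1 ERSE-II (chr11:119057368-119057402, minus strand, element read on the opposite strand): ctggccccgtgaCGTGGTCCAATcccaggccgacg

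An ERSE was found in 7 of the 31 promoters (HSPA5, HSP90B1, CALR, CANX, CRELD2, PDIA6 and XBP1), whereas 0.0769% of all 35116 promoter windows held one. ERSE-II was found in HERPUD1, HYOU1 and SDF2L1, against 0.0541% of all windows. One of the HYOU1 matches overlapped its match to the UPRE core, a core present in 0.729% of windows. A match is a description of these letters and says nothing of binding in HuCCT1 cells.

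YAP1 itself checked the labels. It stood at 12.59, 12.61, 12.77 and 12.60 (log2) in the control samples and at 10.40, 10.55, 10.51 and 10.54 with the YAP shRNA. YAP1 fell 4.41-fold (limma adjusted p = 6.15e-07). The exact two-sided permutation p was 0.0286, the smallest that 4 against 4 allows. All 7 epithelial markers of the bile duct lay above the median gene level of 7.44, with control means from 12.63 (lowest) to 14.20. Of markers of other cells, 0 of 4 for hepatocytes, 0 of 4 for endothelium and 0 of 2 measured for leukocytes did, and 1 of 4 for fibroblasts, COL1A1, whose mean was 7.95 in the controls and 8.48 after knockdown. The part of that marker in the results was not tested. Control shRNA replicate 4 stood apart from the other arrays on the second principal component, which held 20.7% of the variance, at -23 against -6.4 to 12.3. That array touches several results below, and the values of the genes and medians it moves most are given without it as well.

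Knockdown of YAP1 left the transcripts of most of these stress genes close to their control level. Of the 32 measured genes, 0 rose and 3 fell, namely PPP1R15A, DDIT3 and SEL1L (limma, adjusted p below 0.05 by Benjamini-Hochberg across every gene tested). That is 9.4% of the set, where 16.7% of all genes were called, 9.49% higher and 7.17% lower with the YAP shRNA. Another scaling moves the split over all genes: 1876 were higher and 1418 lower as deposited, against 1485 and 1879 after centring each array on its median. At an unadjusted p below 0.05 (limma) there were 8 of the 32, beside 5785 of all 19775 genes. The median log2 fold change was -0.035, with 14 values above 0 and 18 below, and the median over all genes was 0.013. Without control replicate 4 these medians were -0.011 and 0.022, and without YAP shRNA replicate 2 the stress genes' median was -0.020. Over all genes the 5th percentile was -0.281 and the 95th 0.337.

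Small differences between the groups were more often free of overlap than called. In 9 genes, or 28.1%, all 4 YAP shRNA samples lay below all 4 controls, and in 0 genes above. Over all genes the groups did not overlap in 24.3%, with 13.4% higher and 10.9% lower. The 9 genes were HSPA5, DNAJC3, CALR, HYOU1, SEL1L, ATF4, DDIT3, PPP1R15A and PHGDH. For the 29 genes that were not called, every 95% interval of the log2 fold change lay within 0.31 in either direction. That is within 1.24-fold, and the farthest bound was that of ERN1. These intervals hold for the brightest probe set of each gene. Dimmer probe sets of the 29 genes differed by -0.47 (DNAJC3) to 0.25 (ATF6), and the bound does not cover them.

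**Figure D1:**
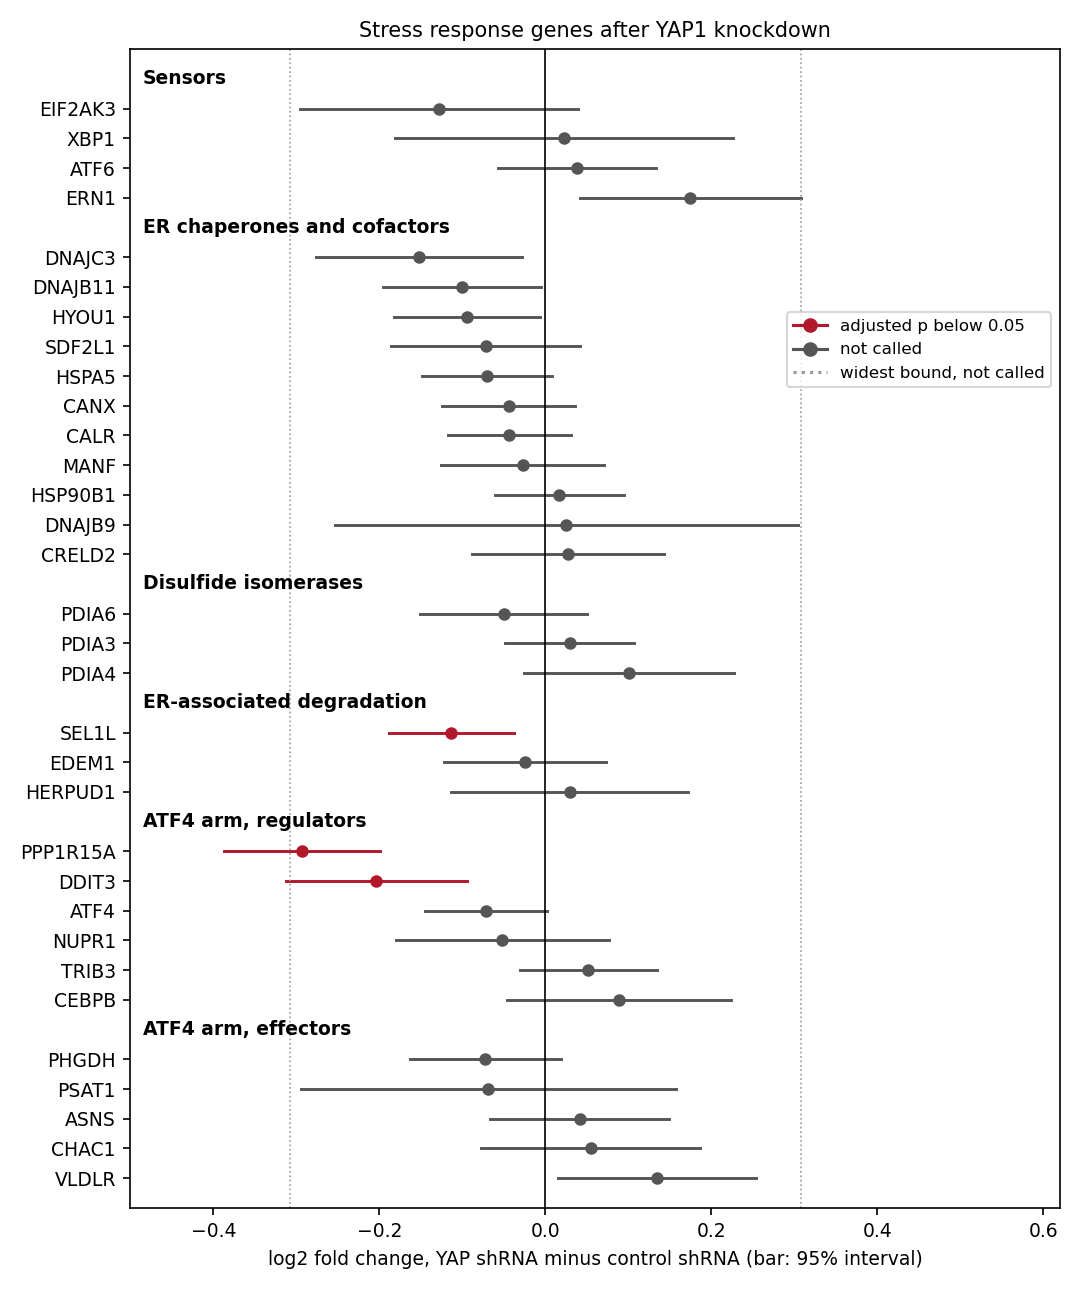
Log2 fold change (YAP shRNA minus control shRNA, n = 4 and 4) of each measured stress gene on the horizontal axis, with its 95% interval from limma, grouped by role. The genes called changed, drawn in red, are PPP1R15A, DDIT3 and SEL1L. The intervals of the other 29, each for the gene's brightest probe set, stay inside the dotted lines, drawn at the farthest bound among them.

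None of the 4 sensor genes was called, beside 16.7% of all genes. An unadjusted p below 0.05 (limma) was reached by 1 of the 4, and by 5785 of all 19775 genes. ERN1 stood at 10.88, 10.88, 10.87 and 11.09 in the controls and at 11.10, 11.18, 11.08 and 11.07 with the YAP shRNA. Its first 3 controls lie below every knockdown sample, and the control replicate 4 value overlaps them. The log2 fold change was 0.17 (limma adjusted p = 0.0787), and without control replicate 4 ERN1 was called higher, at 0.23 (limma adjusted p = 0.00583). Its probe sets disagreed, since a dimmer one gave -0.25 (limma adjusted p = 0.0259 over all probe sets) and the third 0.14. No direction for ERN1 transcript as a whole can be given from these.

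EIF2AK3, the gene of PERK, read 8.31, 8.28, 8.29 and 8.58 in the controls against 8.19, 8.22, 8.34 and 8.21. The knockdown value of replicate 3 lies between the first 3 controls and the last, and the other knockdown values lie below every control. The log2 fold change was -0.13 (limma adjusted p = 0.299), or -0.06 (0.432) without control replicate 4. For XBP1 the controls were spread from 9.89 to 10.30 (10.11, 9.91, 9.89 and 10.30 in turn) and the knockdown samples lay inside that span, at 10.08, 10.10, 10.12 and 9.99. The XBP1 difference was 0.02 (95% interval -0.18 to 0.23; limma adjusted p = 0.905), and its sign turned under quantile normalization (-0.0047) and median centring (-0.0104). XBP1 is both a factor of the response and, through its ERSE, a known target of ATF6.

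ATF6 stood at 9.99, 10.00, 9.96 and 9.99 in the controls and at 9.96, 10.05, 10.10 and 9.97 after knockdown. These groups overlap, and the difference was 0.04 (limma adjusted p = 0.619). All 4 ATF6 probe sets had a positive difference, from 0.04 to 0.25. Tested among all probe sets, 2 of the dimmer ones passed, at 0.25 (limma adjusted p = 0.0200) and 0.17 (limma adjusted p = 0.0493).

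Among the 17 measured targets of ATF6 and XBP1, 0 rose and 1 fell, which is 5.9%, beside 16.7% of all genes. Values ran from -0.15 to 0.10 with a median of -0.043, or -0.016 without control replicate 4. The 10 genes with an ERSE or ERSE-II, XBP1 included, had a median of -0.044, and 0 of them were called. The 20 others in the promoter table had a median of -0.026, with the 3 falls among them.

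The 11 ER chaperones and their cofactors had 0 calls, beside 16.7% of all genes. They had 8 values below 0, as did 9112 of all 19775 genes, and a median of -0.044. HSPA5, which encodes BiP, the ER member of the Hsp70 family and the usual readout of ER stress, stood at 13.33, 13.29, 13.33 and 13.36 in the controls. With the YAP shRNA it stood at 13.23, 13.26, 13.28 and 13.26. The groups do not overlap, though the lowest control and the highest knockdown value nearly meet. The difference was -0.07 (95% interval -0.15 to 0.01; limma adjusted p = 0.222), and the second HSPA5 probe set gave -0.22 (limma adjusted p = 0.114 over all probe sets). HSP90B1 (GRP94), the Hsp90 of the ER, differed by 0.02 (limma adjusted p = 0.808), a sign that median centring turned (-0.0162).

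DNAJC3 (p58IPK), a cochaperone of BiP known to restrain eIF2alpha kinases, had the lowest log2 fold change of the chaperone group. Its control values were 12.71, 12.75, 12.78 and 12.94, and its knockdown values 12.67, 12.67, 12.63 and 12.61. The groups do not overlap, and the highest value is that of control replicate 4. The difference of -0.15 did not pass (limma adjusted p = 0.0963). All 4 DNAJC3 probe sets were negative, from -0.47 to -0.15, and the one at -0.47 passed among all probe sets (limma adjusted p = 0.0370).

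HYOU1 (GRP170), a nucleotide exchange factor of BiP, stood at 11.50, 11.44, 11.43 and 11.46 against 11.37, 11.33, 11.42 and 11.33. Its groups miss each other narrowly, and the difference was -0.09 (limma adjusted p = 0.141). Calreticulin (CALR), a lectin chaperone of glycoproteins, stood at 13.07, 13.05, 13.05 and 13.07 against 13.01, 13.02, 13.04 and 13.01. Its difference was -0.04 (limma adjusted p = 0.440), and its 3 probe sets, all negative, ran from -0.17 to -0.04 with 0 called. Its membrane-bound relative calnexin (CANX) also differed by -0.04 (limma adjusted p = 0.472), and all 5 of its probe sets were negative, of which 1, at -0.20, passed among all probe sets (limma adjusted p = 0.0425).

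DNAJB9 (ERdj4), a BiP cochaperone induced through XBP1, showed the widest spread among controls. It stood at 10.32, 10.51, 10.45 and 10.96 there, and at 10.59, 10.60, 10.63 and 10.52 with the YAP shRNA. The knockdown samples all lie above the first 3 controls and below the last. The difference was 0.03 (limma adjusted p = 0.923), and median centring turned its sign (-0.0077). The remaining chaperone genes had overlapping groups. DNAJB11 differed by -0.10 (limma adjusted p = 0.150), SDF2L1 by -0.07 (0.398), MANF by -0.03 (0.747) and CRELD2 by 0.03 (0.791), the last with a sign that quantile normalization turned (-0.0058).

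The 3 protein disulfide isomerases, which form and rearrange disulfide bonds in the ER, had 0 calls, beside 16.7% of all genes. PDIA4 stood at 12.81, 12.84, 12.83 and 13.04 in the controls and at 12.98, 12.99, 12.97 and 12.97 with the YAP shRNA. The first 3 controls lie below the knockdown samples and the last above them. The difference was 0.10 (limma adjusted p = 0.278), and 0.16 without control replicate 4, when it was called higher (limma adjusted p = 0.0112). A second, dimmer PDIA4 probe set gave 0.03 (limma adjusted p = 0.897 over all probe sets). With all arrays, the mean of the PDIA4 probe sets was at 0.06 (limma adjusted p = 0.561). PDIA3 differed by 0.03 (limma adjusted p = 0.644) and PDIA6 by -0.05 (limma adjusted p = 0.521).

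Of the 3 measured genes of ER-associated degradation, which returns misfolded proteins to the cytosol, SEL1L fell. SEL1L is the adaptor that holds the ubiquitin ligase SYVN1 in its complex. It stood at 12.92, 12.93, 12.94 and 12.93 in the controls and at 12.80, 12.80, 12.85 and 12.81 with the YAP shRNA. The groups are tight and apart, 12.93 ± 0.0088 against 12.82 ± 0.022 (SD, n = 4 and 4), a 1.08-fold difference with a log2 standard error of 0.033 (limma adjusted p = 0.0491).

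The SEL1L call was at the edge of the threshold and passed in 6 of 18 alternatives. It was lost without control replicate 1, 2 or 3 (limma adjusted p = 0.0735, 0.103 and 0.111) and without YAP shRNA replicate 1, 2, 3 or 4 (0.113, 0.130, 0.0784 and 0.113). It was also lost after quantile normalization (0.0614), and the mean of the SEL1L probe sets was not called (0.305). Among the probe sets, 1 gave -0.32 (limma adjusted p = 0.0408 over all probe sets), while others gave -0.02 and 0.04. HERPUD1, which brings substrates to the ligase and holds an ERSE-II, differed by 0.03 (limma adjusted p = 0.818), and median centring turned its sign (-0.0034). EDEM1, which recognises mannose-trimmed glycoproteins, differed by -0.02 (limma adjusted p = 0.777).

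The ATF4 branch had 0 rises and 2 falls among 11 genes, or 18.2%, near the 16.7% of all genes, with values from -0.29 to 0.13. With 11 genes the median is the value of 1 gene, and -0.052 was that of NUPR1. When the probe sets of each gene were averaged the median was 0.052, the value of PSAT1. That gene lies below the 25th percentile of gene levels, so the turn of sign is no shift of the whole branch. Without control replicate 2 the median was 0.005, and without control replicate 4 -0.020. The median was -0.085 after centring and -0.031 with array weights. The 6 regulators held both falls.

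PPP1R15A, the stress-induced regulatory subunit that reverses eIF2alpha phosphorylation, fell most. It stood at 8.89, 8.84, 8.93 and 8.89 in the controls and at 8.57, 8.53, 8.63 and 8.64 with the YAP shRNA. The gap between the groups exceeds the range within either. The means were 8.89 ± 0.0361 and 8.59 ± 0.0515 (SD, n = 4 and 4), a 1.23-fold fall with a log2 fold change of -0.29 (SE 0.0411; limma adjusted p = 0.00176). A second PPP1R15A probe set gave -0.33 (limma adjusted p = 0.00436 over all probe sets). The call passed in 19 of 19 alternatives, with log2 fold changes between -0.34 and -0.27.

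DDIT3, the pro-apoptotic factor CHOP, fell as well. Its controls were 8.96, 8.98, 8.96 and 9.09 and its knockdown samples 8.76, 8.76, 8.88 and 8.77. The groups do not overlap, and 1 sample of each lies above its other 3. The means were 8.99 ± 0.0621 and 8.79 ± 0.0591 (SD, n = 4 and 4), a 1.15-fold fall with a log2 fold change of -0.20 (SE 0.0479; limma adjusted p = 0.0207). The call was lost without YAP shRNA replicate 1, 2 or 4 (limma adjusted p = 0.0594, 0.0649 and 0.0609) and passed in 15 of 19 alternatives. Without control replicate 4 DDIT3 still fell, by 0.17.

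ATF4 itself, whose protein level is set mainly by translation, stood at 13.81, 13.79, 13.82 and 13.81 in the controls and at 13.74, 13.73, 13.73 and 13.74 with the YAP shRNA. The groups are tight and do not overlap. The difference was -0.07 (95% interval -0.14 to 0.00; limma adjusted p = 0.180). TRIB3, a pseudokinase induced by ATF4 and CHOP that restrains ATF4, read 9.84, 9.88, 9.91 and 9.91 against 9.94, 9.93, 9.97 and 9.91. TRIB3 differed by 0.05 (limma adjusted p = 0.399). CEBPB, a bZIP partner of ATF4, differed by 0.09 (limma adjusted p = 0.376), and NUPR1, a small stress-induced nuclear protein, by -0.05 (limma adjusted p = 0.616).

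**Figure D2:**
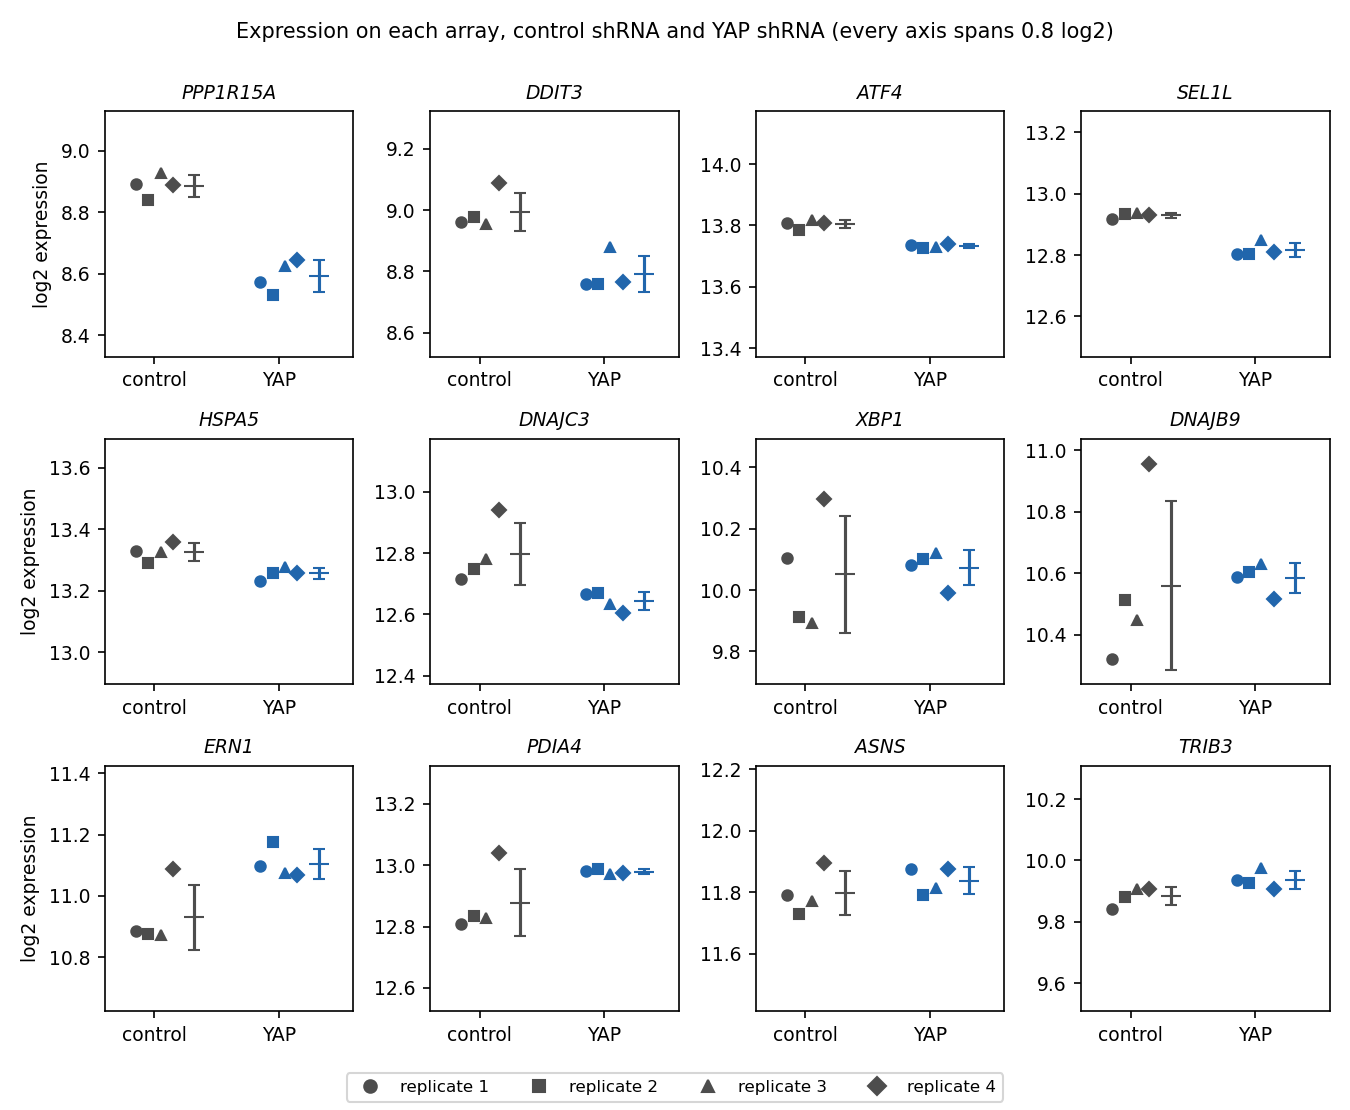
Log2 expression on each array for 12 stress genes, 1 panel a gene and every axis of the same span, with control shRNA samples in grey, YAP shRNA samples in blue, 1 symbol a replicate number, and bars for the mean ± SD (n = 4). PPP1R15A has the widest gap between its groups, and the diamond of control replicate 4 lies among or above the knockdown samples in ERN1, PDIA4, XBP1 and DNAJB9.

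The 5 other genes known as ATF4 targets, which serve amino acid supply, glutathione turnover and, in VLDLR, lipoprotein uptake, had 0 calls. Over all genes the share called was 16.7%. A CARE was found in the promoters of ASNS, CHAC1 and HERPUD1, in 3.62% of all windows, and the first of these is the well-known amino acid response element of asparagine synthetase.
ASNS CARE (chr7:97872457-97872488, minus strand): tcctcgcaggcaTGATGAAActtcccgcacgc
CHAC1 CARE (chr15:40953250-40953281, plus strand, element read on the opposite strand): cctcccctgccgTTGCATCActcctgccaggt

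ASNS, which makes asparagine from aspartate, stood at 11.79, 11.73, 11.77 and 11.90 in the controls and at 11.87, 11.79, 11.81 and 11.88 with the YAP shRNA. These groups overlap, with a difference of 0.04 (limma adjusted p = 0.634). CHAC1, which degrades glutathione, stood at 8.23, 8.12, 8.23 and 8.31 against 8.19, 8.27, 8.39 and 8.26. The CHAC1 groups overlap too, at a difference of 0.05 (limma adjusted p = 0.605).

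PHGDH, the first enzyme of serine synthesis, stood at 9.88, 9.89, 9.89 and 9.98 in the controls and at 9.80, 9.83, 9.87 and 9.87 after knockdown. Its groups do not overlap by a narrow margin, and the difference was -0.07 (limma adjusted p = 0.279). PSAT1, the next enzyme of that pathway, had a mean of 5.01 in the controls and 4.94 after knockdown, below the 25th percentile of gene levels (5.14), and the values carry no detection call. VLDLR, a lipoprotein receptor induced by ATF4, differed by 0.13 (limma adjusted p = 0.125).

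Control shRNA replicate 4 carried the highest control value in 23 of the 32 genes (71.9%), where it did so in 40.2% of all genes. The other controls were highest in 3, 2 and 3 genes. In 17 genes (53.1%) its value was the highest of all 8 arrays, against 23.6% of all genes. Its median excess over the other 3 controls was 0.097 for the stress genes, 0.247 for the 4 sensors, 0.063 for the targets of ATF6 and XBP1, 0.104 for the ATF4 branch and 0.038 for all genes. DNAJB9 exceeded the other controls by 0.53, XBP1 by 0.33, EIF2AK3 by 0.28, HERPUD1 by 0.24 and PDIA4 by 0.22. What set this array apart was not tested.

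Leaving this array out raised the calls among the stress genes from 3 to 5 (15.6%), while calls over all genes went from 16.7% to 19.6%. ERN1 and PDIA4 were then higher, and PPP1R15A, DDIT3 and SEL1L were still lower. The same 9 genes lay apart on the lower side, and 7 genes lay apart on the higher side (ERN1, HSP90B1, DNAJB9, PDIA4, HERPUD1, CEBPB and VLDLR). Over all genes, 13.9% then lay apart lower and 17.7% higher. Some fits that keep all 8 arrays also called higher genes. These were ERN1 and PDIA4 with array weights (limma adjusted p = 0.01002 and 0.0373), ERN1 and VLDLR without genes below the median level, and ERN1 with a trended robust spread. Among genes not called without this array, DNAJB9 stood at 0.16 (limma adjusted p = 0.0885), XBP1 at 0.10 (0.302), HERPUD1 at 0.09 (0.133) and PDIA6 at -0.02 (0.789). The number called was 1 without YAP shRNA replicate 1, 2 or 4, and 2 without YAP shRNA replicate 3 or without control replicate 1, 2 or 3. In those 7 fits between 2381 and 2878 of the 19775 genes were called.

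**Figure D3:**
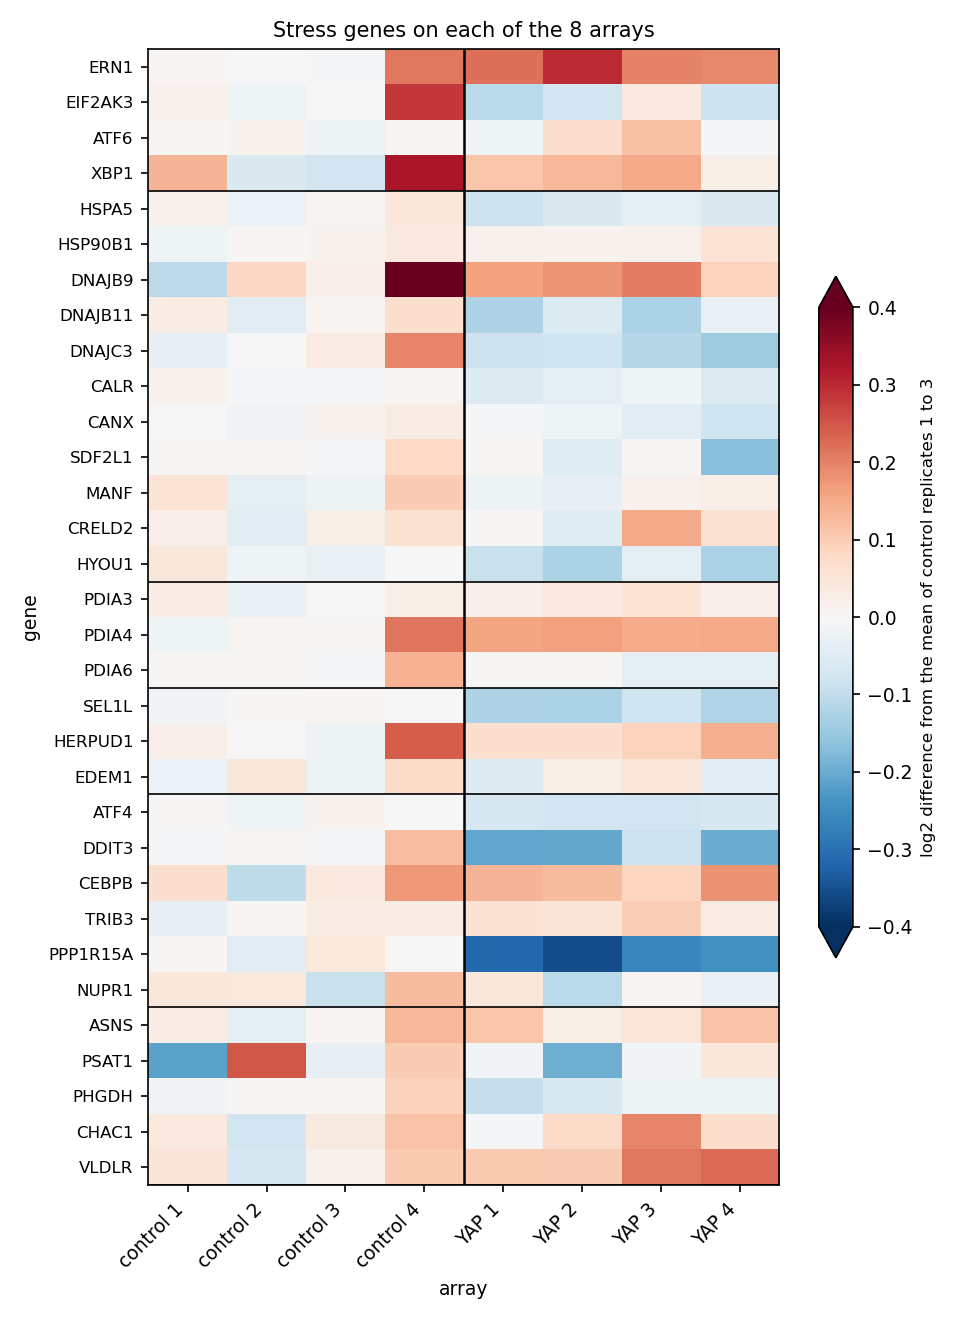
Log2 difference of each stress gene (rows) on each of the 8 arrays (columns) from the mean of control replicates 1 to 3, as colour, in blocks by role. The column of control shRNA replicate 4 is the one with most high values, led by DNAJB9 and XBP1, and PPP1R15A and DDIT3 are low on all 4 YAP shRNA arrays.

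More than 1 probe set was present for 19 of the 32 genes, giving 66 probe sets in all. Their differences had 1 sign in 12 of these genes and both signs in 7. The genes with both signs include ERN1 and SEL1L, whose values are given above.

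Other genes of the ER moved in both directions. Of 71 measured, 9 rose and 7 fell (22.5%, beside 16.7% of all genes), with a median of -0.004. The count was 9 without YAP shRNA replicate 1 or 2, and 10 without YAP shRNA replicate 3 or 4. The sub-list of regulators and downstream genes of the unfolded protein response held 6 rises and 1 fall among 12 genes (median 0.115). The folding list held 2 and 2 of 20, degradation factors 1 and 2 of 18, and translocation and traffic 0 and 2 of 21. These shares describe lists drawn up with earlier results in view and were not tested against other lists.

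BCL2L11 (BIM), a pro-apoptotic factor known as a CHOP target, rose by 0.37 (limma adjusted p = 0.00158), but the mean of its probe sets was at 0.09 (0.327). MBTPS1, the site-1 protease that cuts ATF6, rose by 0.24 (limma adjusted p = 0.0154), a call lost without YAP shRNA replicate 4 (limma adjusted p = 0.0501). MAP3K5 (ASK1), a kinase downstream of IRE1, rose by 0.23 (limma adjusted p = 0.0337). That call was lost without control replicate 2 or any 1 of the 4 YAP shRNA replicates (0.0509 to 0.0944), after median centring (0.0564) and as the mean of its probe sets (0.0925). The other genes of this sub-list that rose, named after their values were seen, were ATF6B, TXNIP and TNFRSF10B, by 0.19, 0.20 and 0.17. Their limma adjusted p values were 0.0493, 0.0268 and 0.00969. The ATF6B call was at the edge of the threshold, and the alternatives are not given for these genes. CREB3L1, an ATF6-like factor of secretory cells, fell by 0.29 (limma adjusted p = 0.00633).

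The folding list also holds genes that are not ER folding enzymes, such as SUMF1. In it ERO1B, an oxidase that recharges disulfide isomerases, fell by 0.97 from a low level, 6.30 to 5.33 (limma adjusted p = 0.0126). DNAJB2 fell by 0.23 (limma adjusted p = 0.0308), a call lost without control replicate 1 or 3 or any 1 YAP shRNA replicate (0.0632 to 0.0818). SUMF1, which activates sulfatases, rose by 0.31 (limma adjusted p = 0.0184). It was not called without control replicate 3 or YAP shRNA replicate 1 or 2 (0.0515 to 0.0547). TXNDC11 rose by 0.17 (limma adjusted p = 0.0129).

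In degradation and traffic, FAF2, which recruits the p97 ATPase to the ER, fell by 0.26 (limma adjusted p = 0.00128). SSR3, a subunit of the translocon-associated complex, fell by 0.27 (limma adjusted p = 0.00204), and LMAN1, a cargo receptor for ER exit, by 0.19 (0.0106). DERL2, a channel component of ER-associated degradation, fell by 0.13 (0.0490) and was not called when any 1 of the 8 arrays was left out (0.0552 to 0.125), after quantile normalization (0.0705) or as the mean of its probe sets (0.302). MAN1B1, a mannosidase that marks glycoproteins for degradation, rose by 0.22 (0.0251). That call was lost without control replicate 1 or 2 or YAP shRNA replicate 1, 2 or 3 (0.0551 to 0.077), after quantile normalization (0.106) and after median centring (0.0636).

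The other genes of amino acid stress had 6 rises and 4 falls among 58 measured (17.2%), close to the 16.7% of all genes, with a median of 0.009. The count was 6 without YAP shRNA replicate 4. DDIT4 (REDD1), an inhibitor of mTORC1 induced by stress, rose by 0.38 (limma adjusted p = 0.000204). ATF5, a relative of ATF4 whose translation is likewise stress-controlled, fell by 0.35 (limma adjusted p = 0.00969). EIF2B3, a subunit of the exchange factor that eIF2alpha phosphorylation inhibits, fell by 0.18 (0.0267). Its call was lost without control replicate 1 or 3 or YAP shRNA replicate 2, 3 or 4 (0.0546 to 0.0811).

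Known ATF4 targets in this list went both ways. AARS1, a tRNA synthetase, rose by 0.28 (limma adjusted p = 0.00151), and the mitochondrial enzymes PCK2 and ALDH1L2 rose by 0.28 (0.00257) and 0.33 (0.00904). The mean of the ALDH1L2 probe sets was at 0.14 and not called (0.147). EPRS1 rose by 0.18 (0.0203), a call lost without control replicate 2 or YAP shRNA replicate 2 or 4 (0.0537 to 0.0588). The glycine transporter gene SLC6A9 rose by 0.28 from a low level (0.0167), and was not called without YAP shRNA replicate 3 or 4 (0.0525 and 0.0537).

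SLC7A5 and SLC3A2 encode the light and heavy chains of the large neutral amino acid transporter. SLC7A5 fell by 0.17 (limma adjusted p = 0.0117) and SLC3A2 by 0.15 (0.0480). The SLC3A2 call was lost without control replicate 1, 2 or 4 or any 1 YAP shRNA replicate (0.0518 to 0.116). In the fit on means of probe sets it also missed the threshold (0.0509). SLC3A2 has only 1 probe set, so its own difference was unchanged there.

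**Figure D4:**
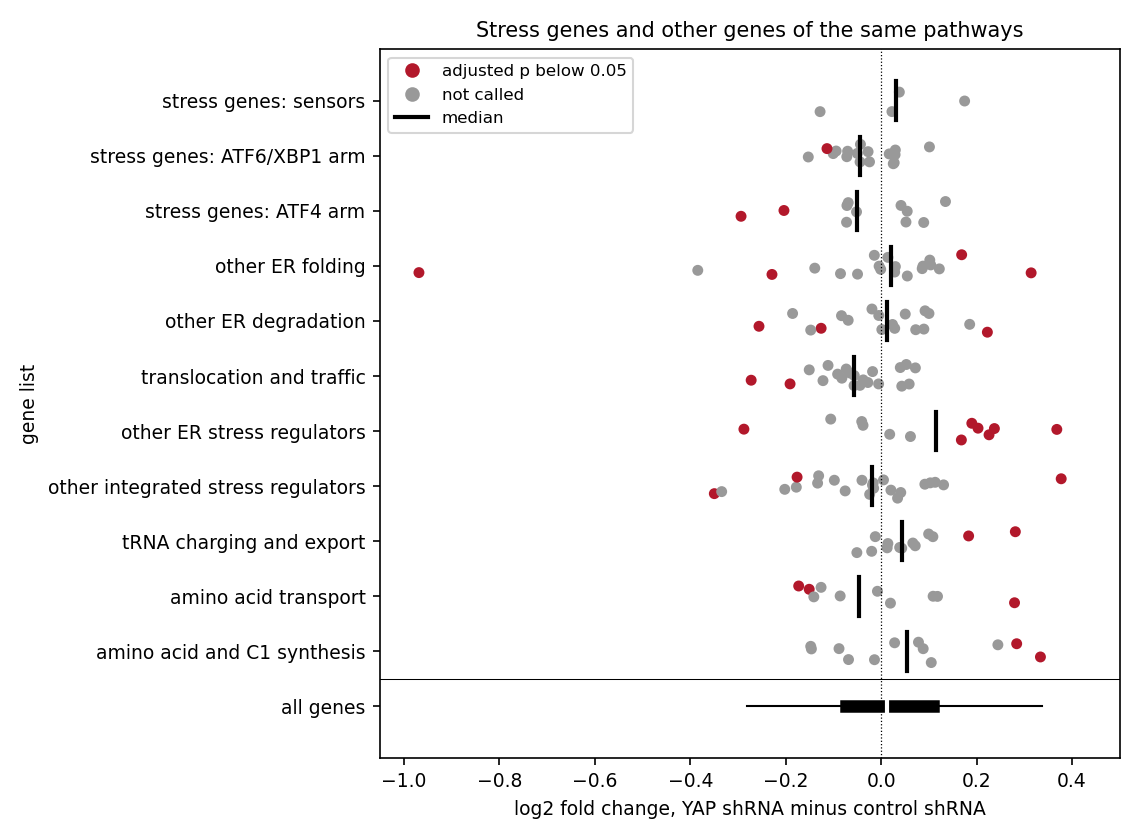
Log2 fold change (YAP shRNA minus control shRNA) of every measured gene in the branches of the response and in the lists of other ER and amino acid stress genes, 1 point a gene, red where called, with the median of each list as a black line and the 25th to 75th and 5th to 95th percentiles of all genes as a thick and a thin bar. The stress genes lie between -0.29 and 0.17, and the other lists reach from -0.97 (ERO1B) to 0.38 (DDIT4).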

How the data were processed

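Column-isolated RNA went through NuGEN amplification and biotin labelling before hybridisation to Affymetrix arrays, per the labels' protocols. The authors deposited 1 value per probe set and array on a log2 scale, a base inferred from the range. How background, summarisation and normalization were handled is not given in the sources, and the values were used as deposited. Arrays carry no depth, so their number limits the precision, and 0 pairs of arrays were identical.

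Of 54675 probe sets, GEO's platform annotation, which can be old, gave 1 symbol to 41097, several to 1801 and none to 11777. Entrez IDs matched 41043 of the first kind to RefSeq (GRCh38.p14), with 0 symbols changed. Each of 19775 genes was represented by its probe set with 1 symbol and the highest mean. Levels of different probe sets were not compared. The test was limma 3.58.1 (R 4.3.3), YAP shRNA minus control shRNA, with Benjamini-Hochberg adjustment over all genes. It was tested on simulated data with 50 genes changed by each size. It recovered 32% of changes of 0.25 log2, 70% of those of 0.5 and 98% of those of 1. In that simulation, changes of 0.25 log2 were missed more often than found. It changed 200 genes drawn from all levels, whereas 3294 of the 19775 genes were called in the data. With fewer changed genes the adjusted threshold is stricter, so these shares do not give the recovery among the stress genes. Probe sets were also tested singly, with adjustment over all probe sets.

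The members, the lists of other genes and the tests were chosen with earlier results of these data known. Every array's value is given for members called, for those whose groups do not overlap and for 10 central members. Other members are given in brief. From each list of other genes, up to 3 rises and 3 falls are named, by size. Replicate numbers did not pair the samples (correlations of deviations from -0.2061 to 0.002). Figures were drawn with matplotlib 3.10.9. SYVN1 was not analysed.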

Additional observations from a re-analysis of the deposited data

Results flagged for a closer look

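In 112 groups of 4 samples (56 genes, YAP1 included), 11 had 1 sample standing far off its 3 companions. A rate of 1 in 20 independent groups would give 5.6. These groups share the same arrays, and 23 of the genes were named because they were called, so that figure is no test of chance. All 11 were groups of YAP1 or of the stress genes. In 7 of the 11 the sample far off was control shRNA replicate 4, each time the highest. Its values were 11.089 for ERN1 (other controls 10.872 to 10.885), 8.578 for EIF2AK3 (8.279 to 8.314), 8.769 for SDF2L1 (8.681 to 8.693) and 13.04 for PDIA4 (12.808 to 12.836). They were 13.173 for PDIA6 (13.029 to 13.038), 11.514 for HERPUD1 (11.25 to 11.292) and 9.087 for DDIT3 (8.956 to 8.976). What set this array apart was not tested.

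YAP1 stood at 12.772 in control shRNA replicate 3, above the other controls at 12.587 to 12.611. In YAP shRNA replicate 3, SEL1L stood at 12.849 (others 12.802 to 12.808) and DDIT3 at 8.879 (others 8.758 to 8.767). HSP90B1 stood at 12.457 in YAP shRNA replicate 4, above the others at 12.416 to 12.419.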

How the results depend on the processing

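The YAP1 check of the knockdown gave a called fall in all 19 alternatives, with log2 fold changes from -2.20 to -2.10. The 3 stress genes called (16.7% of all genes) became 8 without genes below the median level (2 higher, 6 lower; 39.3% of all genes), 8 with a trended robust spread (1 and 7; 21.8%), 5 with array weights (2 and 3; 20.5%), 1 and 5 at adjusted p below 0.01 and 0.10 (9.03% and 22.8%), and 1 to 5 with 1 array left out (2381 to 3881 of 19775 genes). With a replicate block, although the numbers did not pair the samples, 1 was called (PPP1R15A; 10.6% of all genes), with 0 in the ATF6 and XBP1 arm, 1 in the ATF4 arm, 5 of the other ER genes and 4 of the other amino acid stress genes.
Sensor calls (0) were 1 without genes below the median level, with the trended spread, with array weights and at 0.10, and 0 to 1 with 1 array left out. ATF6 and XBP1 arm calls (1) were 0 after quantile normalization, without _x_at probe sets, with every probe set tested (added after seeing the data) and at 0.01. They were 2 after median centring, with array weights and at 0.10, 3 without genes below the median level, 4 with the trended spread and 0 to 2 with 1 array left out. ATF4 arm calls (2) were 4 without genes below the median level, 1 at 0.01 and 1 to 2 with 1 array left out. Other ER genes (16) gave 27 with the trended spread, 5 at 0.01 and 9 to 18 with 1 array left out. Other amino acid stress genes (10) gave 6 without _s_at, _x_at and _a_at probe sets, 16 with the trended spread, 5 at 0.01 and 6 to 11 with 1 array left out.
The median of the members (-0.0354) was -0.0139 after quantile normalization, -0.0684 after centring, -0.0156 with array weights and -0.0434 to -0.011 with 1 array left out. The median of the ATF6/XBP1 arm (-0.0434) was -0.0139 after quantile normalization, -0.0765 after centring, -0.0681 as means of probe sets, -0.0255 with array weights and -0.0480 to -0.0157 with 1 array left out. The median of the ATF4 arm (-0.0516) was -0.0847 after centring, -0.031 with array weights, -0.0050 and 0.0416 without genes below the 25th percentile and the median, 0.0519 as means of probe sets, -0.0099 without _s_at, _x_at and _a_at probe sets and -0.0673 to 0.0050 with 1 array left out.
Signs turned only in genes not called. XBP1 was at -0.0047 after quantile normalization, -0.0104 after centring and -0.0306 to 0.1046 with 1 array left out. CRELD2 was at -0.0058 under both scalings and -0.0090 to 0.057 with 1 array left out. Centring gave -0.0162 for HSP90B1, -0.0077 for DNAJB9, -0.0039 for PDIA3 and -0.0034 for HERPUD1. Means of probe sets gave -0.0120 for HSP90B1, -0.0103 for PDIA3, -0.0124 for HERPUD1 and 0.0519 for PSAT1. DNAJB9 was at -0.0003 without _s_at, _x_at and _a_at probe sets, and at -0.0538 to 0.1576 with 1 array left out, and PSAT1 at -0.1486 to 0.0050. Over 55 named genes and 19 alternatives, 900 values kept direction and side of the threshold, 88 lost the call, 17 gained it and 19 turned sign. Dim genes such as PSAT1 have no detection call here, which limits what their values show.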
